A study of Mus musculus with 9 samples.

Results

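Neural stem cells (NSCs), which the study assigns to the Nkx2.2+ lineage, were compared at 5.5DDC and at 6.5DDC. DDC stands for days of culture in differentiation conditions, and this is the second of the intervals between the sampled time points. The members are 6 of the 9 libraries of the series, 3 at each time point, chosen by the time point in their labels, and every gene of the count table was considered. The study asks how NSCs that first make motor neurons (MNs) switch to serotonergic neurons (5HTNs), and this interval follows the MN window. All cultures came from mouse embryonic stem cells, labelled as strain 129 and wild type, and all had received retinoic acid (RA) and SAG, an agonist of Smo, by the labels between 0 and 3 DDC, while the study's methods give a slightly later time for their withdrawal. Dissociated cells were enriched on a magnetic column for prominin-1, which marks the surface of neural progenitors, so each library is a bulk sample of the cells that the beads retained. The times are labelled 5.5 and 6.5 in the sample names, but a further field of the labels has 5 and 6 days. They do not say whether libraries of 1 time point came from separate cultures, so the p-values measure the spread between these libraries, which may be technical.

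In the developing hindbrain, ventral progenitors exposed to Shh express Nkx2-2 and first give rise to visceral MNs and later to 5HTNs, which turn on Gata2, Gata3, Lmx1b and Fev and then the genes for serotonin synthesis and transport. Progenitors that leave the cell cycle switch off replication and mitosis genes and build up a neuronal cytoskeleton, channels and synaptic proteins, whereas those that stay take on radial glial and later astroglial features. The RNA-binding protein Lin28 keeps the let-7 microRNAs low in young progenitors, and let-7 in turn represses Lin28, Hmga2 and related genes as progenitors age.

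The 6 libraries held between 11066568 and 25506193 counts. Of 14742 genes tested with edgeR's quasi-likelihood test, with the replicate number as a block, 195 (1.32%) had an adjusted p under 0.05. Of these, 116 (0.787%) were higher at 6.5DDC and 79 (0.536%) were lower, and the words rose and fell are used below only for these genes. Without the replicate block 4 were higher and 29 were lower, so nearly all rises rest on the block, and the labels do not say what libraries of the same number share. The model was fitted to all 9 libraries of the series. With the 6 compared libraries alone, 70 genes were higher and 32 were lower. At an unadjusted p under 0.05, 1520 genes (10.3%) were higher and 1560 (10.6%) were lower. The median log2 change over all genes tested was 0.02, and 52.3% of genes had a positive change. All 195 genes moved in 1 direction within each of the 3 replicate numbers, as 45.6% of all genes tested did. The number of calls depended on single libraries. It was 0 when any of the 5.5DDC libraries or replicate 2 of 6.5DDC was left out, with between 1469 and 1962 genes at an unadjusted p under 0.05, and it was 510 without replicate 1 and 2240 without replicate 3 of 6.5DDC. All 195 genes kept their direction in every alternative fit that tested them. The genes were called from these same libraries, so this agreement, and that within replicate numbers, is no independent support.

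The libraries were not equally alike. Replicates 2 and 3 of 5.5DDC were close to each other, with a mean chi-square of 2.58 per gene between their counts where counting noise alone gives about 1, whereas the other pairs of libraries within a time point had between 25.5 and 67.4. They differed by more than counting noise and were kept as 2 samples, and leaving out either of them gave 0 calls. Replicate 1 stood apart from replicates 2 and 3 at both time points, with lower levels of neuronal and mesenchymal genes. The summed FPKM (the authors' measure of level, scaled to transcript length and library size) of 16 genes of postmitotic neurons was 248.5 in replicate 1 against 1015 in both other replicates at 5.5DDC, and 529 against 1160.4 and 1269.6 at 6.5DDC. Fewer cells of a type and less RNA per cell cannot be told apart in such bulk samples. Levels below are FPKM in the order of replicates 1, 2 and 3, with log2 changes fitted to counts, and 3 libraries against 3 cannot give a two-sided exact permutation p below 0.1, the value reached where levels do not overlap. Of all genes tested, 10.1% were higher and 13.9% were lower at 6.5DDC without overlap in FPKM. Of the 195 called genes 142 did not overlap, so a lack of overlap adds little for a called gene.

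**Figure D1:**
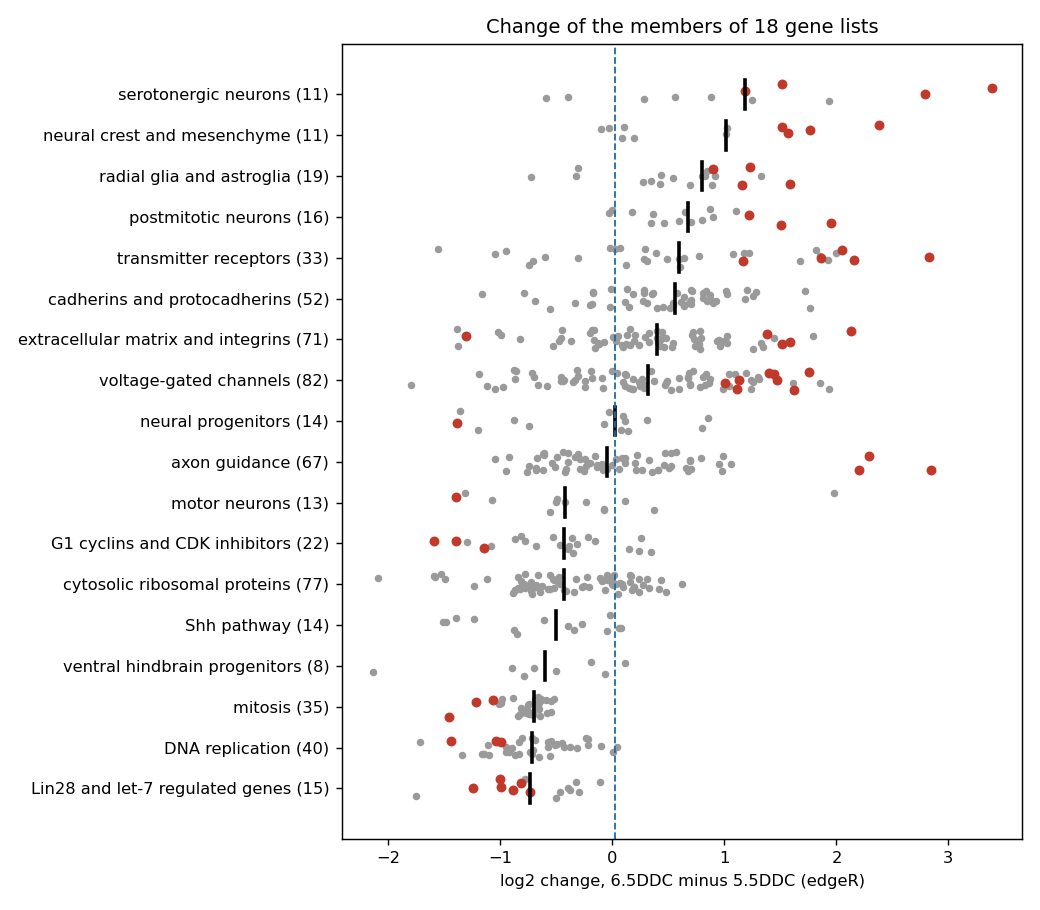
Log2 change from 5.5DDC to 6.5DDC (x axis, edgeR fit) of the tested members of gene lists (y axis, number tested in brackets). Each point is a gene, red for an adjusted p under 0.05 and grey otherwise, black bars are list medians and the dashed line is the median of all genes tested. The serotonergic list has the highest median of those drawn (1.18) and the Lin28 and let-7 list the lowest (-0.74). The interneuron list, which is not drawn, had a median of 1.21 over 3 tested genes and no call.

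Among the serotonergic genes, the regulators Fev and Gata3 and the transporters Slc6a4 and Slc18a2 rose. All 11 genes of the 5HTN list were tested, and 9 had a positive change, against 52.3% of all genes tested. Of the 11, 4 rose, against 0.787% of all genes, and none fell. The median log2 change was 1.18 against 0.02 over all genes. Fev, the ETS factor also called Pet1 that maintains serotonergic identity (chr1:74881509-74885419, GRCm38), was at 0.115, 0.305 and 0.319 FPKM at 5.5DDC and at 1.29, 1.27 and 2.54 FPKM at 6.5DDC. The libraries of the 2 time points did not overlap, and its log2 change was 2.79 (SE 0.48, adjusted p = 0.0324). Slc6a4, the serotonin transporter (chr11:76998603-77032340), went from 0.152, 0.0518 and 0.155 FPKM to 1.45, 0.834 and 0.671 FPKM, a log2 change of 3.38 (SE 0.44, adjusted p = 0.0225). Both genes were still near or below 2 FPKM at the later time point, so their rises are from very low levels.

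Slc18a2, the vesicular monoamine transporter VMAT2, was by contrast well expressed already, with 26.1, 17.0 and 16.8 FPKM at 5.5DDC and 50.9, 37.4 and 42.4 FPKM at 6.5DDC. Its mean of 19.96 ± 5.31 FPKM (SD, n = 3) thus became 43.6 ± 6.86 FPKM, a log2 change of 1.18 (SE 0.20, adjusted p = 0.0298). Gata3, a zinc-finger factor upstream of Fev, had 1.18, 4.70 and 3.07 FPKM and then 2.60, 6.91 and 7.33 FPKM. It rose within each replicate number, with a log2 change of 1.52 (SE 0.29, adjusted p = 0.0435), but the libraries of the time points overlapped because replicate 1 was low at both.

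The remaining serotonergic genes did not pass the test. Tph2, the rate-limiting enzyme of neuronal serotonin synthesis, had 0.122, 0.216 and 0.254 FPKM and then 1.30, 0.337 and 0.605 FPKM (log2 change 1.93, SE 0.57, adjusted p = 0.123). Gata2 was at 4.35 ± 1.41 FPKM and then 5.13 ± 1.92 FPKM (SD, n = 3), with a log2 change of 0.28 (adjusted p = 0.553). Lmx1b, the LIM-homeodomain factor required for 5HTNs that is also used by the floor plate, had 28.7, 16.6 and 13.9 FPKM and then 11.5, 7.63 and 12.9 FPKM, without overlap in FPKM but with a log2 change of -0.39 in counts (adjusted p = 0.333). Ddc, which makes serotonin from its precursor, had a log2 change of -0.59 (adjusted p = 0.197). Gch1, which makes a cofactor of serotonin synthesis, had a log2 change of 1.25 (adjusted p = 0.0602), and Slc22a3, a low-affinity transporter of monoamines, had one of 0.88 (adjusted p = 0.222).

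A pair of genes outside the list, named after their values were seen, are expressed by 5HTNs. Slc17a8, the vesicular glutamate transporter VGLUT3, went from 2.24, 6.96 and 6.06 FPKM to 14.7, 28.4 and 30.4 FPKM (log2 change 2.13, SE 0.37, adjusted p = 0.0326). Ptger3, a receptor for prostaglandin E2, went from 0.0650, 0.241 and 0.189 FPKM to 0.853, 1.15 and 1.02 FPKM (log2 change 2.80, SE 0.49, adjusted p = 0.0351). Neither gene overlapped between the time points, as was so for 142 of all 195 called genes.

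**Figure D2:**
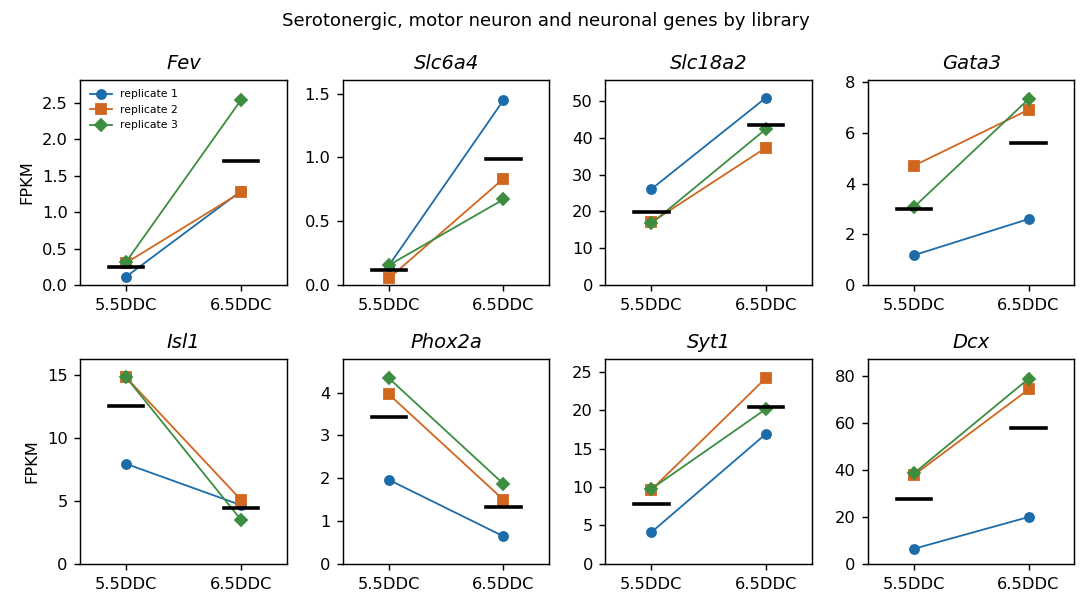
FPKM (y axis, linear from 0) of 8 genes at 5.5DDC and 6.5DDC (x axis). Points are single libraries, lines join libraries with the same replicate number and black bars are means of 3 libraries. Fev, Slc6a4 and Slc18a2 are higher and Isl1 is lower in all 3 libraries of 6.5DDC, and Gata3 and Dcx rise within each replicate number from different starting levels.

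Of 13 tested MN markers, 10 had a negative change, the median was -0.42, and 1 gene fell, against 0.536% of all genes tested. Within replicates 1, 2 and 3 the median was 0.16, -0.44 and -0.21, so it was positive in replicate 1. Isl1, a LIM-homeodomain determinant of MNs (chr13:116298281-116309689), was at 7.96, 14.8 and 14.8 FPKM and then at 4.68, 5.11 and 3.53 FPKM, without overlap (log2 change -1.40, SE 0.25, adjusted p = 0.0351). Phox2a, a homeodomain factor of visceral MNs and noradrenergic neurons, had 1.97, 3.96 and 4.34 FPKM and then 0.645, 1.498 and 1.87 FPKM (log2 change -1.32, SE 0.33, adjusted p = 0.0834) and did not pass. The median of the MN list was positive (0.02) in 1 of 21 alternatives. Dbh, the enzyme that makes noradrenaline, is in no list, was chosen after its values were seen, and fell from 1.59, 7.73 and 4.04 FPKM to 0.203, 1.88 and 0.604 FPKM (log2 change -1.62, SE 0.31, adjusted p = 0.0438), lower within each replicate number.

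Tgfb2, the ligand that the study examines as a timer signal, was at 8.24, 4.61 and 5.74 FPKM and then at 9.66, 6.65 and 5.88 FPKM (log2 change 0.28, SE 0.17, adjusted p = 0.355). Of 20 tested genes of the TGF-beta and activin pathway, 11 had a positive change and none was called. The most abundant were the receptor Tgfbr1 (log2 change 0.24, adjusted p = 0.458) and the transducer Smad3 (log2 change -0.17, adjusted p = 0.559).

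Ventral progenitor factors and Shh pathway genes had negative medians without a call. Of 8 ventral hindbrain progenitor genes, 7 had a negative change (median -0.60). Nkx2-2, the lineage marker, was at 10.2, 17.2 and 17.9 FPKM and then at 7.28, 12.5 and 18.8 FPKM (log2 change -0.19, SE 0.19, adjusted p = 0.596). Nkx2-9, a related factor used transiently, had 0.5005, 1.17 and 0.904 FPKM and then 0.0561, 0.128 and 0.312 FPKM, without overlap (log2 change -2.14, SE 0.60, adjusted p = 0.109). Foxa2 and Foxa1, forkhead factors shared with the floor plate, were the most abundant of the list and had log2 changes of -0.06 (adjusted p = 0.878) and 0.11 (adjusted p = 0.727). The summed level of the 8 genes was between 193 and 214 FPKM at 5.5DDC and between 147 and 197 FPKM at 6.5DDC. That of 12 floor plate genes was between 1992 and 2989 FPKM and then between 2458 and 3019 FPKM.

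Among the 14 Shh pathway genes, 12 had a negative change (median -0.51), 9 of them at an unadjusted p under 0.05 (10.6% of all genes tested), and 8 were lower without overlap in FPKM (13.9% of all). Gli1, the activator that is itself a target of the pathway, was at 0.920, 1.85 and 1.72 FPKM and then at 0.223, 0.550 and 0.915 FPKM (log2 change -1.40, SE 0.37, adjusted p = 0.0950). Gli3, which serves as activator or repressor, was at 1.44, 1.34 and 1.54 FPKM and then at 0.897, 0.671 and 0.320 FPKM (log2 change -1.24, SE 0.28, adjusted p = 0.0650). Gli2 was under 1 FPKM in all 6 libraries (log2 change -1.51, SE 0.52, adjusted p = 0.161). Ptch1, the Shh receptor and feedback inhibitor, remained among the better expressed, with 42.1, 39.6 and 39.3 FPKM and then 19.5, 26.2 and 33.3 FPKM (log2 change -0.61, SE 0.18, adjusted p = 0.121). Shh itself (log2 change 0.08, adjusted p = 0.848) and its transducer Smo (log2 change -0.40, adjusted p = 0.229) were the most abundant members.

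Of 16 genes of postmitotic neurons, 14 had a positive change, the median was 0.67, and Syt1, Syt4 and Dcx rose. Over all genes tested 52.3% had a positive change and 0.787% rose. The median was 1.402, 0.05 and 0.55 within replicates 1, 2 and 3, so it was largest in replicate 1 and near that of all genes in replicate 2. Syt1, the calcium sensor of synaptic vesicle release, was at 4.11, 9.64 and 9.76 FPKM and then at 16.9, 24.2 and 20.2 FPKM, without overlap (log2 change 1.51, SE 0.21, adjusted p = 0.0225). Dcx, a microtubule protein of young neurons, was at 6.44, 37.8 and 38.6 FPKM and then at 19.97, 74.3 and 78.9 FPKM (log2 change 1.22, SE 0.18, adjusted p = 0.0240). Syt4, another synaptotagmin, was at 0.566, 8.06 and 8.22 FPKM and then at 5.09, 23.4 and 20.8 FPKM (log2 change 1.95, SE 0.32, adjusted p = 0.0297). For Dcx and Syt4 replicate 1 at 6.5DDC was below replicates 2 and 3 at 5.5DDC, so the libraries of the time points overlapped. Both genes were higher at 6.5DDC within each replicate number. The part of the neuronal content of the sorted cells in these rises was not tested.

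Receptor and channel genes of neurons had positive medians too. Of 33 tested transmitter receptor genes, 25 had a positive change (median 0.59), against 52.3% of all genes tested. Of the 33, 5 rose, against 0.787% of all genes, and none fell. The AMPA receptor subunit Gria2 was at 0.222, 2.13 and 2.58 FPKM and then at 1.34, 7.92 and 11.3 FPKM (log2 change 2.16, SE 0.29, adjusted p = 0.0225). The kainate receptor subunit Grik2 (log2 change 2.05) and Gria4 (log2 change 1.86) also rose. In each of these 3 genes replicate 1 was the lowest library at both time points.

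Of 82 tested genes for voltage-gated channels and their subunits, 55 had a positive change (median 0.32), against 52.3% of all genes tested. Of the 82, 8 rose, against 0.787% of all genes, and none fell. Kcnmb2, a modulatory subunit of calcium-activated potassium channels, had close levels in the 3 replicates, with 2.78, 2.92 and 2.97 FPKM at 5.5DDC and 7.80, 8.10 and 7.48 FPKM at 6.5DDC. Its mean went from 2.89 ± 0.0976 to 7.79 ± 0.310 FPKM (SD, n = 3), with a log2 change of 1.47 (SE 0.20, adjusted p = 0.0225). The other large rises were Kcnq5 (log2 change 1.75) and the sodium channel subunit Scn3b (1.62). Scn3a, Cacna2d1, Cacnb4 and Kcnd3 rose by between 1.002 and 1.39 on the log2 scale. Of the exonic bases of Cacnb4, 16.0% overlap a gene on the other strand, and the strand of the counting was not given in the sources used here.

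Axon guidance genes split. Of 67 tested, 32 had a positive change and the median was -0.05, and 3 rose, against 0.787% of all genes tested. Robo3, a receptor that controls midline crossing, was at 0.126, 0.964 and 1.16 FPKM and then at 0.255, 5.58 and 16.2 FPKM (log2 change 2.84, SE 0.41, adjusted p = 0.0225). Dcc, the netrin receptor, was at 0.312, 1.28 and 1.36 FPKM and then at 1.19, 5.59 and 8.74 FPKM (log2 change 2.29, SE 0.28, adjusted p = 0.0225). Epha5, an ephrin receptor, had a log2 change of 2.20 (SE 0.31, adjusted p = 0.0225). All 3 had replicate 1 far below the other replicates at both time points. In the Notch list, with 20 genes tested and a median of -0.44, the 1 call was Dner, a neuronal transmembrane protein that can bind Notch, which rose by 1.80 on the log2 scale (SE 0.25, adjusted p = 0.0225).

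Among the 52 tested cadherins and protocadherins, 41 had a positive change (median 0.56) and none was called, although 25 were higher at an unadjusted p under 0.05, against 10.3% of all genes tested. The most abundant were Cdh2, the N-cadherin of neuroepithelium (log2 change 0.31, adjusted p = 0.282), and Pcdhgc4 (log2 change -0.20, adjusted p = 0.410).

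The 15 largest rises were taken among called genes that reached 2 FPKM on average at 6.5DDC, with no shared range of FPKM. Chgb, a core protein of dense-core secretory granules, went from 10.2, 26.8 and 26.04 FPKM to 50.3, 85.8 and 117 FPKM (log2 change 2.06, SE 0.27, adjusted p = 0.0225). Rasgrf2, an exchange factor for Ras, went from 0.0105, 0.683 and 0.252 FPKM to 0.987, 3.54 and 2.47 FPKM (log2 change 3.47, SE 0.49, adjusted p = 0.0225). Slc6a17 (log2 change 2.49), a transporter of synaptic vesicles, Diras2 (2.40), AW551984 (2.32), the fatty acid receptor Ffar4 (2.14), the vesicle protein Synpr (1.87), the LIM-domain protein Lmo3 (1.78), Nell1 (1.59) and the potassium channel subunit Dpp6 (1.52) followed, beside Slc17a8, Grik2, Gria4 and Tnc, which are described with their groups. The rise with the largest log2 change, 4.82 for Gkn2 (SE 0.70, adjusted p = 0.0298), rested on replicate 1, which was at 23.7 FPKM at 6.5DDC against 1.58 and 0.989 FPKM in the others, and without that library it was 2.80.

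Grouped by role after their values were seen, and so as a description only, the called rises included 12 ion channels and subunits, 11 genes of synaptic vesicles and regulated secretion, 8 receptors for transmitters and lipids and 13 genes of axon guidance, adhesion and synapse organisation. Their median log2 changes were 1.42, 1.95, 2.09 and 1.80.

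Progenitor genes went both ways, while 4 astroglial genes rose. Of 14 neural progenitor genes, 7 had a positive and 7 a negative change and the median was 0.02. Without overlap in FPKM, 2 were higher (10.1% of all genes tested) and 4 were lower (13.9% of all). Sox2, a pluripotency and progenitor factor, was at 89.1, 84.8 and 82.0 FPKM and then at 84.9, 96.0 and 82.0 FPKM (log2 change 0.07, SE 0.14, adjusted p = 0.787), and the intermediate filament gene Nes was at 160.2 ± 10.04 and then 154 ± 14.0 FPKM (SD, n = 3; log2 change -0.03, adjusted p = 0.933). Vim, another intermediate filament gene and the most abundant of the list, had a log2 change of -0.08 (adjusted p = 0.798). These 3 markers were present in every library. The progenitor factor Sox3 (log2 change -1.36, SE 0.42, adjusted p = 0.133), the Notch target Hes5 (log2 change -1.20, adjusted p = 0.277), the receptor Notch1 (log2 change -0.88, adjusted p = 0.153) and the RNA-binding protein Msi1 (log2 change -0.75, adjusted p = 0.113) had negative changes that did not pass. Prom1, the gene for the sort antigen, was at 107, 99.9 and 104 FPKM and then at 207, 187 and 154 FPKM, without overlap, and did not pass (log2 change 0.86, SE 0.18, adjusted p = 0.0579). The only call of the list was Sall4, a zinc-finger factor of young progenitors, which fell from 17.0, 16.0 and 16.1 FPKM to 7.71, 5.72 and 6.80 FPKM (log2 change -1.39, SE 0.17, adjusted p = 0.0225).

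Of 19 tested radial glial and astroglial genes, 16 had a positive change, the median was 0.80, and 4 rose. Over all genes tested 52.3% had a positive change and 0.787% rose. Slc1a3, the glutamate transporter GLAST, was at 39.0, 25.8 and 23.5 FPKM and then at 47.6, 44.4 and 44.9 FPKM (log2 change 0.90, SE 0.14, adjusted p = 0.0264). Nfib, a nuclear factor I protein that promotes gliogenesis, was at 1.47, 3.60 and 3.45 FPKM and then at 4.17, 7.86 and 4.73 FPKM (log2 change 1.16, SE 0.23, adjusted p = 0.0484). Mlc1, a membrane protein of astrocytes, rose by 1.23 and the matrix glycoprotein Tnc by 1.58 on the log2 scale. None of the 4 overlapped between the time points, as was so for 142 of all 195 called genes. The related factor Nfia had 9.28, 5.95 and 8.55 FPKM and then 9.54, 13.3 and 16.0 FPKM (log2 change 0.89, SE 0.22, adjusted p = 0.0832), and Fabp7, the radial glial fatty acid binding protein, had 252, 630 and 643 FPKM and then 655, 911 and 737 FPKM (log2 change 0.80, adjusted p = 0.169). The members with a negative change were the gap junction gene Gja1 (log2 change -0.73, adjusted p = 0.191), the FGF receptor gene Fgfr3 (log2 change -0.31, adjusted p = 0.376) and the glycolytic enzyme gene Aldoc (log2 change -0.32, adjusted p = 0.633). Gfap, the filament protein of mature astrocytes, was under 0.5 FPKM in all 6 libraries.

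All 35 tested mitosis genes and 38 of 40 tested DNA replication genes had a negative change, with medians of -0.70 and -0.72, and 55 of the 75 were lower at an unadjusted p under 0.05, against 10.6% of all genes tested. After adjustment 6 of the 75 fell, against 0.536% of all genes tested. The medians differed between replicate numbers. They were -0.27, -0.71 and -1.42 for mitosis and -0.06, -0.94 and -1.17 for DNA replication in replicates 1, 2 and 3. The summed level of the mitosis genes was 1956, 2290.4 and 2393 FPKM at 5.5DDC and 1660.0, 1349.7 and 926 FPKM at 6.5DDC, without overlap. That of the DNA replication genes was 1338, 1681 and 1731 FPKM and then 1282, 916 and 755 FPKM.

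Plk1, the kinase that drives mitotic entry and spindle assembly (chr7:122159439-122169873), was at 27.8, 28.7 and 29.5 FPKM and then at 13.5, 8.14 and 9.09 FPKM (log2 change -1.46, SE 0.23, adjusted p = 0.0245). Aurkb, a kinase of the chromosomal passenger complex, was at 49.7, 53.9 and 65.5 FPKM and then at 27.5, 23.3 and 21.7 FPKM (log2 change -1.22, SE 0.20, adjusted p = 0.0264). Cdca8, a further subunit of that complex, fell by 1.07 on the log2 scale. Levels of these genes at 6.5DDC were all below those at 5.5DDC. Mki67, the common proliferation marker, had 48.0, 52.2 and 54.2 FPKM and then 37.3, 34.2 and 20.8 FPKM (log2 change -0.71, SE 0.26, adjusted p = 0.184), and Top2a had a log2 change of -0.69 (adjusted p = 0.209).

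Further mitotic genes outside the list also fell. Gtse1, which acts on microtubules and p53 in G2, went from 17.2, 18.97 and 16.9 FPKM to 6.03, 4.52 and 5.20 FPKM (log2 change -1.72, SE 0.23, adjusted p = 0.0225). Espl1, the separase that cleaves cohesin (chr15:102296266-102324357), went from 11.8, 10.7 and 11.6 FPKM to 4.05, 3.89 and 3.59 FPKM (log2 change -1.54, SE 0.16, adjusted p = 0.0225). Kif18b, a kinesin of astral microtubules (chr11:102905529-102925124), went from 14.7, 13.0 and 14.8 FPKM to 6.07, 3.54 and 4.19 FPKM (log2 change -1.59, SE 0.21, adjusted p = 0.0225). Within each time point the libraries of Espl1 lay close together. Foxm1, the factor that activates G2 and M phase genes, was chosen after its values were seen and went from 31.4, 38.0 and 47.5 FPKM to 21.8, 19.6 and 14.1 FPKM (log2 change -1.34, SE 0.18, adjusted p = 0.0225). By role, assigned after the values were seen to 104 of the 195 called genes, 21 of the 79 falls were genes of mitosis and cytokinesis and 13 were genes of DNA replication and repair, with median log2 changes of -1.25 and -1.20.

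Of the replication list, Uhrf1, which keeps DNA methylation through replication, was at 57.6, 65.0 and 82.9 FPKM and then at 42.0, 20.9 and 25.9 FPKM (log2 change -1.45, SE 0.24, adjusted p = 0.0298). Lig1, the replicative DNA ligase, was at 82.5, 104 and 132 FPKM and then at 63.5, 45.7 and 43.5 FPKM (log2 change -1.04, SE 0.18, adjusted p = 0.0329). Chaf1a, a histone chaperone subunit, fell by 0.996 on the log2 scale, and 52.5% of its exonic bases overlap a gene on the other strand. Of the genes of other roles in replication, Chtf18, a subunit of a clamp loader, had the largest fall of all genes that met the rule, from 7.47, 10.1 and 7.65 FPKM to 2.27, 1.13 and 4.26 FPKM (log2 change -1.94, SE 0.31, adjusted p = 0.0264), and Recql4, a helicase, fell by 1.66. The licensing gene Mcm2 (log2 change -0.92, adjusted p = 0.0650) and the clamp gene Pcna (log2 change -0.89, adjusted p = 0.0877) did not pass.

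At the entry to the cycle, the list of G1 cyclins and CDK inhibitors also held CDK, E2F and retinoblastoma family genes. Of its 22 tested genes, 18 had a negative change (median -0.43) and 3 fell, against 0.536% of all genes tested. No CDK inhibitor was among the 3. Ccnd1, cyclin D1, was at 109, 62.1 and 62.2 FPKM and then at 48.6, 17.2 and 13.2 FPKM (log2 change -1.59, SE 0.27, adjusted p = 0.0308). Of its exonic bases, 23.4% overlap a gene on the other strand. E2f7, a repressor of E2F targets (chr10:110745439-110787384), was at 6.15, 6.27 and 13.3 FPKM and then at 2.65, 2.55 and 2.13 FPKM (log2 change -1.40, SE 0.19, adjusted p = 0.0225). Its relative E2f8 fell by 1.15 on the log2 scale.

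**Figure D3:**
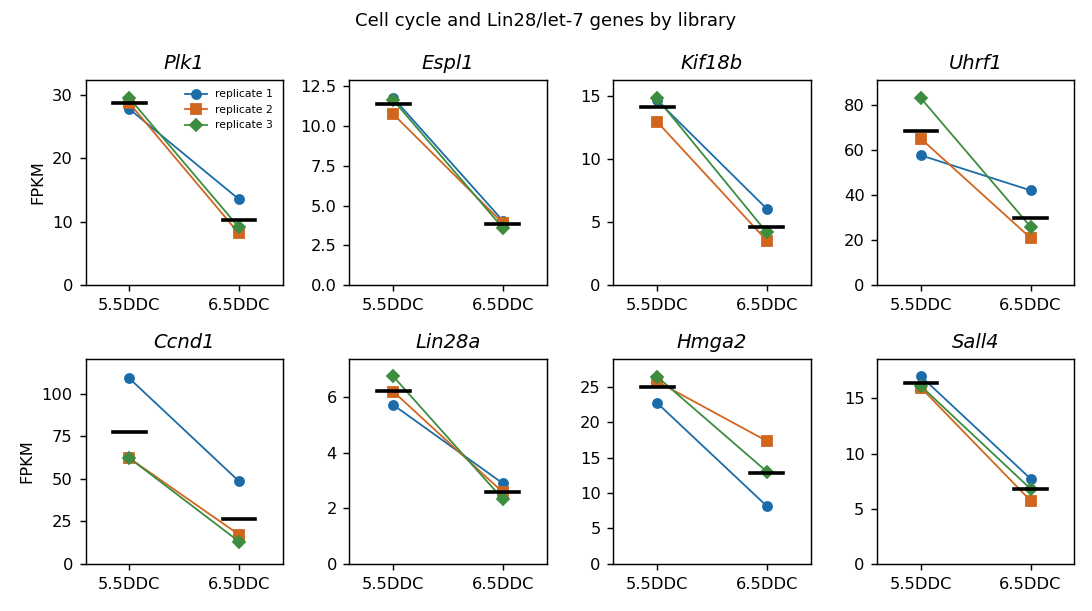
FPKM (y axis, linear from 0) of 8 genes that fell, at 5.5DDC and 6.5DDC (x axis). Points are single libraries, lines join libraries with the same replicate number and black bars are means of 3 libraries. In all 8 genes every library of 6.5DDC lies below every library of 5.5DDC.

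The further large falls that met the rule were Kifc5b (log2 change -1.88), the secreted pentraxin Nptx2 (-1.88), Gm5648 (-1.87), the kinase Pkn3 (-1.73), the augmin subunit Haus5 (-1.59), Gm6960 (-1.58), the nuclease Ankle1 (-1.55), the growth factor Mdk (-1.55) and Plk-ps1 (-1.505). Mdk, midkine, was abundant, with 269, 267 and 237 FPKM and then 104, 57.1 and 96.7 FPKM. Kifc5b is a near copy of Kifc1, and Plk-ps1, Gm5648 and Gm6960 are annotated as pseudogenes, so reads may be split between copies and these values are uncertain. Haus5 shares 56.5% of its exonic bases with another gene on its own strand, and its FPKM fell less than its counts, from 18.5 ± 2.34 to 12.1 ± 2.66 FPKM (SD, n = 3).

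Promoters of the mitotic genes Plk1, Espl1 and Kif18b and of E2f7, which all fell, are shown as examples. Genes of mitosis are known to share a pair of elements, a cell-cycle homology region and CCAAT boxes bound by NF-Y, while S phase genes carry E2F sites. RefSeq promoters (GRCm38.p6, from 250 bases before to 50 bases after the start) were matched for 9997 of the tested genes, 12913 promoters in all. They covered 47 of the 79 genes that fell and 86 of the 116 that rose. Capitals mark, on either strand, the letters TTTGAA of the homology region, the box CCAAT and the E2F letters TTTCCCGC or TTTGGCGC. Plk1 lies at chr7:122159185-122159484 on the plus strand, Espl1 at chr15:102296043-102296342 on the plus strand, Kif18b at chr11:102925075-102925374 on the minus strand and E2f7 at chr10:110745189-110745488 on the plus strand.
Plk1: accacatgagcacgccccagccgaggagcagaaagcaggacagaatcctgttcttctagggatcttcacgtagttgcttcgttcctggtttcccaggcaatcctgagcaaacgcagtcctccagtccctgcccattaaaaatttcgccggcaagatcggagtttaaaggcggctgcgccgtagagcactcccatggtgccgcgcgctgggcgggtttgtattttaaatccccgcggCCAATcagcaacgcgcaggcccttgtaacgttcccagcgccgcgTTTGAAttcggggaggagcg
Espl1: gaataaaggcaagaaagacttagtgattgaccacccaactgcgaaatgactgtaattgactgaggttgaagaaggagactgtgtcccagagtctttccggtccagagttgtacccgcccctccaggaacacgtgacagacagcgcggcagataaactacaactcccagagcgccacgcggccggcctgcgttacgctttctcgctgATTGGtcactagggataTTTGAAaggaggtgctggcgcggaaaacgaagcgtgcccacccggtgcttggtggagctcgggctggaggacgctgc
Kif18b: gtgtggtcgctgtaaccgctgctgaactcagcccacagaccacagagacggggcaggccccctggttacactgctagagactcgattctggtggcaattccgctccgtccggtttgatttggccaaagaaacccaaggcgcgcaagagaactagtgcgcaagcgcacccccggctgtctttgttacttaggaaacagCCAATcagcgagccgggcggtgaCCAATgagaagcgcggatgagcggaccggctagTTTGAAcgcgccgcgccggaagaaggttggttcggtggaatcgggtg
E2f7: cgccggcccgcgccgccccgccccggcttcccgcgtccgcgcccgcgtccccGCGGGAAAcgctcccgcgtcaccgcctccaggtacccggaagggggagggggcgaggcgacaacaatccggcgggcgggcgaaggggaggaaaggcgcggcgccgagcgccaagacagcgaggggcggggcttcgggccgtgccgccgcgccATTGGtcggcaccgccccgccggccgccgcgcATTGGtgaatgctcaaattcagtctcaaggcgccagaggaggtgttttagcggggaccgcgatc

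The first 3 hold TTTGAA and CCAAT near the start, and E2f7 holds the E2F letters with a pair of CCAAT boxes. TTTGAA was present in 81.8% of the promoters of the mitosis list (27 of 33), in 27.3% of those of the genes that fell (15 of 55), in 9.02% of those of the genes that rose (11 of 122) and in 11.5% of all promoters of tested genes. CCAAT was present in 78.8%, 60%, 29.5% and 37.8% of the same promoters. TTTGAA and CCAAT together were in 69.7% of mitosis promoters, 18.2% of those that fell and 4.72% of all. The E2F letters were in 24.4% of the promoters of the DNA replication list, 9.09% of those that fell, none of the 122 that rose and 2.73% of all. The E boxes CACGTG and CAGCTG were in 12.7% and 21.8% of promoters of genes that fell, 4.92% and 22.1% of those that rose and 9.75% and 15.7% of all. The Gli letters TGGGTGGTC were in 1 of the 55 promoters that fell, 1 of the 122 that rose and 25 of all 12913, too few to compare, and the palindromic NFI site was in none of those that fell or rose and in 0.0232% of all. These matches are a description of letters, and binding was not measured.

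Genes of the Lin28 and let-7 axis had negative changes throughout. All 15 genes of the list were tested, all 15 had a negative change, the median was -0.74 and 6 fell. Over all genes tested 0.536% fell. The summed level was 433, 364 and 359.6 FPKM at 5.5DDC and 247, 233 and 250.4 FPKM at 6.5DDC, without overlap and with little spread between replicates. Lin28a, which blocks let-7 maturation (chr4:134003330-134018841), was at 5.73, 6.21 and 6.76 FPKM and then at 2.90, 2.58 and 2.33 FPKM (log2 change -1.24, SE 0.19, adjusted p = 0.0240). Hmga2, a chromatin protein of young stem cells (chr10:120361275-120476469), was at 22.7, 25.7 and 26.4 FPKM and then at 8.17, 17.3 and 13.0 FPKM (log2 change -1.003, SE 0.17, adjusted p = 0.0329). Igf2bp1, an RNA-binding protein that stabilises growth transcripts, was at 45.8, 46.0 and 45.3 FPKM and then at 24.4, 23.8 and 25.9 FPKM (log2 change -0.74, SE 0.15, adjusted p = 0.0493), and Trim71, a further heterochronic protein, fell by 0.89. The immunoglobulin superfamily receptor Prtg (log2 change -0.9998) and the DNA-binding protein Arid3b (-0.81) also fell. In none of these 6 genes did the libraries of the time points overlap, as in 142 of all 195 called genes. Lin28b (log2 change -0.78, adjusted p = 0.0885) and Hmga1 (log2 change -1.75, SE 0.65, adjusted p = 0.184) were lower without passing.

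The microRNA and some of its matches are shown because the list was built around Lin28 and let-7 regulation. The mature let-7a of RefSeq has its seed (bases 2 to 8) in capitals, and in the 3′ UTR sites of Lin28a, Hmga2 and Trim71 (GRCm38, GENCODE M21) the letters that pair with the seed are in capitals. The sites lie at chr4:134005189-134005211, chr10:120364224-120364246 and chr9:114512472-114512494, all on the minus strand. Each is the first match of its 3′ UTR, of 2 in Lin28a, 4 in Hmga2 and 4 in Trim71.
let-7a: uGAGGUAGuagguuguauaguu
Lin28a site: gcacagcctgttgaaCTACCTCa
Hmga2 site: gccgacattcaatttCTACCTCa
Trim71 site: aacattgcctaagtcCTACCTCa

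Of the 15 genes, 13 (86.7%) had at least 1 such match CTACCTC in their longest 3′ UTR, against 10.98% of all tested genes with a 3′ UTR, 20.3% of those that fell (14 of 69) and 11.01% of those that rose. Per kilobase of 3′ UTR there were 0.747 matches in the list, 0.287 in the genes that fell, 0.0442 in those that rose and 0.0725 over all. Since the list was defined by let-7 regulation, its share is no independent evidence. The 6 called members of the list are among the 14 genes that fell with a match, and without them 8 of 63 (12.7%) had a match, with 0.128 matches per kilobase. The microRNA let-7 itself was not measured in these polyadenylated RNA libraries.

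Matrix genes and mesenchymal markers had positive medians. Of 71 tested genes of extracellular matrix and integrins, 52 had a positive change (median 0.40), and Col3a1, Nid1, Tnc and Reln rose. Over all genes tested 52.3% had a positive change and 0.787% rose. Nid1, a basement membrane protein, was at 8.15, 9.01 and 9.14 FPKM and then at 37.5, 16.7 and 17.2 FPKM (log2 change 1.38, SE 0.26, adjusted p = 0.0405), and Reln, a secreted guide of migrating neurons, rose by 2.13 from below 0.3 FPKM. The collagen Col2a1 fell from 19.4, 11.4 and 12.4 FPKM to 4.26, 6.03 and 7.36 FPKM (log2 change -1.31, SE 0.25, adjusted p = 0.0446).

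Of 11 tested neural crest and mesenchyme genes, 9 had a positive change, the median was 1.01 and 4 rose, all of them for matrix proteins. Over all genes tested 0.787% rose. Dcn, decorin, was at 6.45, 20.4 and 22.1 FPKM and then at 17.5, 61.9 and 63.8 FPKM (log2 change 1.56, SE 0.28, adjusted p = 0.0351). Col3a1 was at 0.690, 9.86 and 9.39 FPKM and then at 2.04, 21.4 and 30.4 FPKM (log2 change 1.51, SE 0.29, adjusted p = 0.0429), and Lum and Postn rose by 2.38 and 1.76. The other tested members did not pass. Their log2 changes were 1.02 for Col1a2, 1.01 for Prrx1 and 0.19 for Col1a1. They were 0.10 for Snai2, 0.08 for Twist1, -0.03 for Pdgfrb and -0.10 for Tfap2b. The summed level of all 14 markers was between 21.5 and 51.8 FPKM at 5.5DDC and between 35.4 and 124 FPKM at 6.5DDC, and none of them was at 0 in all 6 libraries. As with the neuronal genes, replicate 1 was the lowest at both time points. The summed level of 9 endothelial and blood markers was between 1.66 and 6.09 FPKM and then between 5.60 and 8.84 FPKM, with Hba-a1 listed at 0 throughout. The summed level of 11 pluripotency markers was between 3.30 and 6.12 FPKM and then between 2.83 and 7.22 FPKM, and that of 8 oligodendrocyte lineage markers was between 5.76 and 7.67 FPKM and then between 6.71 and 8.30 FPKM, with no call in these lists. The part of such cells in the changes of matrix genes was not tested.

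**Figure D4:**
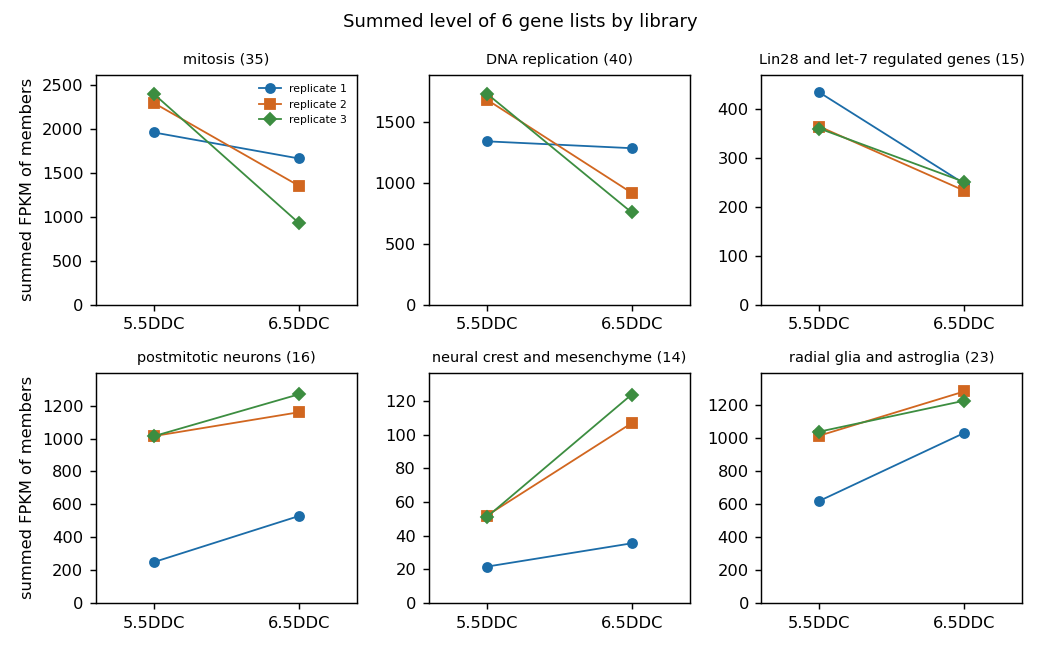
Summed FPKM of all members in the tables (y axis, linear from 0, number of genes in brackets) of 6 gene lists at 5.5DDC and 6.5DDC (x axis), by library, with lines joining libraries of the same replicate number. Replicate 1 is low for neuronal, mesenchymal and astroglial genes at both time points, and the Lin28 and let-7 genes have nearly the same level in the 3 libraries of 6.5DDC.

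In further lists, single genes moved. Crabp1, an RA-binding protein, fell from 46.7, 117 and 112 FPKM to 12.2, 44.7 and 51.2 FPKM (log2 change -1.40, SE 0.26, adjusted p = 0.0394), while the 18 tested genes of the RA pathway had a median of 0.15. The RNA Rian of the imprinted Dlk1 to Meg3 region rose from 213, 261 and 213 FPKM to 382, 340 and 387 FPKM (log2 change 0.75, SE 0.14, adjusted p = 0.0445), in a list of 22 imprinted genes with a median of 0.19. Nfib was the only call among 19 temporal transcription factors (median 0.08).

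No member was called in the lists of Hox genes (20 tested, median 0.27), BMP (18, 0.04), Wnt (23, -0.06), FGF (18, -0.07) and IGF (12, 0.16) pathway genes, floor plate genes (11, 0.11), neurogenic intermediates (18, -0.32), p53 targets (17, -0.17), immediate early genes (17, -0.09), heat shock and unfolded protein response (17, 0.02), respiratory chain (71, 0.09) and glycolysis and hypoxia (24, -0.27). The glycolysis and hypoxia median was 1.09, -0.81 and -0.63 within replicates 1, 2 and 3. Cholesterol synthesis genes had a negative change in 22 of 23 (median -0.29) without a call, and their medians were 0.72, -0.71 and -0.94 in replicates 1, 2 and 3. Among 77 tested ribosomal protein genes 54 had a negative change (median -0.44), and none was called. The most abundant were Rpl13a (log2 change -0.68, adjusted p = 0.222) and Rpl7 (log2 change 0.19, adjusted p = 0.528). These genes have many processed copies, and for Rps3a1 the log2 change in counts was -1.59 while its mean FPKM went from 234 to 265, so their values are uncertain.

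The change in this interval was also compared with that from 4.5DDC to 5.5DDC, which shares the 5.5DDC libraries. No gene had an adjusted p under 0.05 for the difference between the 2 intervals (0.0%; smallest adjusted p 0.712), with 828 genes at an unadjusted p under 0.05. Side by side, the medians of the first and second interval were -0.79 and -0.74 for the Lin28 and let-7 genes, -0.77 and -0.72 for DNA replication, -0.46 and -0.70 for mitosis, 1.01 and 1.18 for serotonergic genes, 0.56 and 0.80 for astroglial genes and 0.24 and 0.67 for postmitotic neurons.

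**Figure D5:**
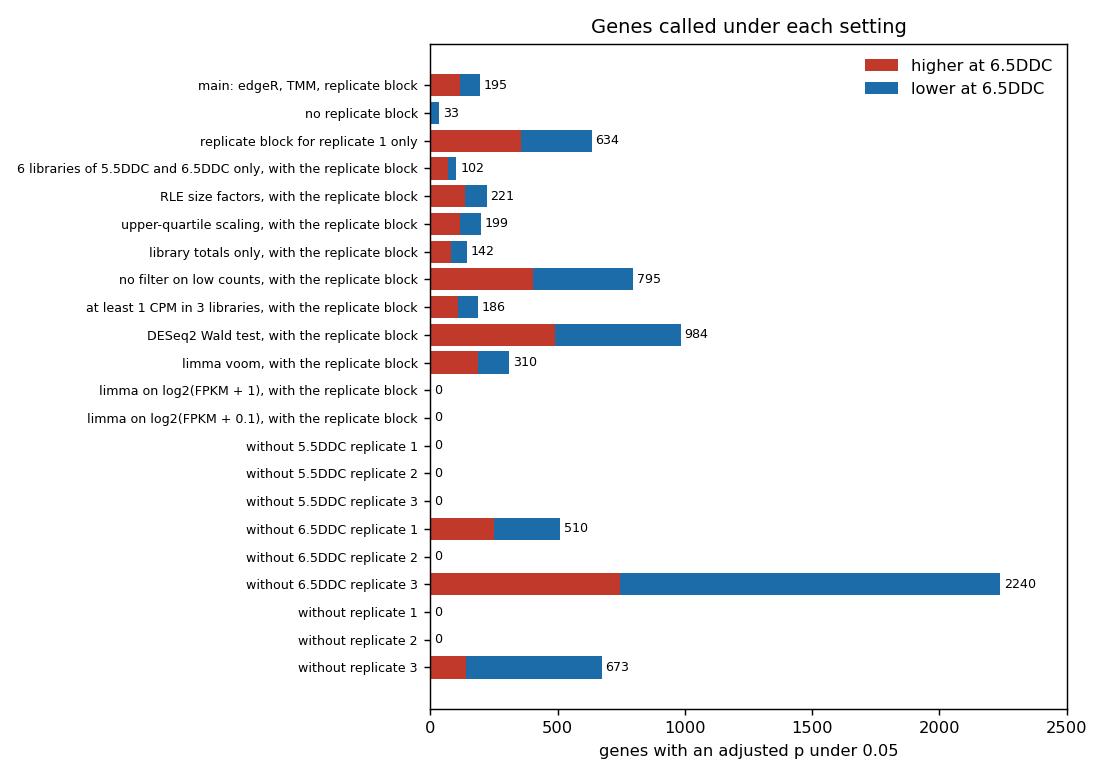
Number of genes with an adjusted p under 0.05 (x axis) in the fit reported here and in 21 alternatives (y axis), split into higher (red) and lower (blue) at 6.5DDC. The number is 195 in the fit reported and runs from 0 to 2240.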

How the data were processed

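RNA of prominin-1 sorted cells was sequenced by the authors as single-end, polyA-selected libraries. Per the labels, the submitters' processing notes name bcl2fastq 1.8.3, TopHat2 2.0.4, HTSeq 0.6.1, Cufflinks 2.1.1 and the build GRCm38. Counts, FPKM and log2 values were deposited for all 9 libraries. The estimated counts, made by the authors from reads aligned with TopHat2 and counted per gene with HTSeq, were whole except for 98 symbols holding between 0.203% and 0.232% of a library, and were rounded. The FPKM values were deposited as made by the authors and served for levels only. The log2 values deposited by the authors were within 0.01 of log2 CPM of the same counts in 100% of cases and were not tested.

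Of 38197 symbols, 23118 had a count and 14742 passed edgeR's filterByExpr by time point. A quasi-likelihood model was fitted to all 9 libraries with edgeR 4.0.16 in R 4.3.3, with time point and replicate number as terms, TMM scaling, 4 residual degrees of freedom and Benjamini-Hochberg adjustment over all genes tested at 0.05. The replicate number was kept as a block. Deviations from the group means of same-numbered 5.5DDC and 6.5DDC libraries correlated at 0.454, 0.367 and 0.197, and the labels do not say what a number shares. Depth was between 11066568 and 25506193 counts, where 3 counts are between 0.118 and 0.271 CPM. Alternatives used DESeq2 1.42.0, limma 3.58.1, other scalings and filters, log2(FPKM + 1) and log2(FPKM + 0.1), and left out single libraries. The analysis was tested on simulated data.

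Gene lists and members were chosen with earlier results of these data known. The text names the 15 largest rises and 15 largest falls among called genes whose FPKM did not overlap and averaged 2 or more where it was higher, the called members of each list (up to the 4 largest required), Gli1, Gli2, Gli3, Ptch1, Nkx2-2, Nkx2-9 and Tgfb2, and defining markers. The rule also covers the most abundant members of lists with fewer than 2 calls. These were named for the lists of ventral progenitors, Shh, TGF-beta, cadherin and ribosomal genes, and for other such lists only counts and medians are given, a departure made to keep the text short. Some genes that the rule covers are not reported here. Other genes named with values were chosen after their values were seen. Promoters and microRNA came from RefSeq (GRCm38.p6) and 3′ UTRs from GENCODE M21, of the files' build. Symbols of 13714 tested genes (93.03%) had a position.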

Additional observations from a re-analysis of the deposited data

Results flagged for a closer look

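For 3 named genes the change in TMM-scaled CPM was in one direction in all 3 replicate numbers from 4.5DDC to 5.5DDC and in the other direction in all 3 from 5.5DDC to 6.5DDC, and these changes share the 5.5DDC libraries. The log2 changes of the first and second interval were 0.303 and -0.0798 for Vim (unadjusted p of the difference 0.192), 0.39 and -0.20 for Pcdhgc4 (unadjusted p = 0.0314) and 1.51 and -1.59 for Rps3a1 (unadjusted p = 0.00411). The adjusted p of the difference, from edgeR, was 0.712 for each, so none passed. In FPKM the pattern did not hold for Vim, since replicate 2 went from 1764 to 1728 in the first interval, and Rps3a1 moved the opposite way to its counts, lower in all 3 replicates and then higher in all 3. The counts of Rps3a1 may be shared with processed copies. In FPKM, but not in CPM, Lmx1b was higher in all 3 replicates in the first interval and lower in all 3 in the second (unadjusted p of the difference in counts 0.00435, adjusted p = 0.712 in edgeR).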

How the results depend on the processing

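Of the 195 genes called, 33 were called without the replicate block (4 higher, 29 lower), and all 33 were among the 195. With a block for replicate 1 only there were 634 (357 higher, 277 lower), with the 6 libraries alone 102 (70 higher, 32 lower), without a filter 795 (405 higher, 390 lower), with DESeq2 984 (490 higher, 494 lower) and with limma voom 310 (187 higher, 123 lower). On log2(FPKM + 1) and log2(FPKM + 0.1) limma called 0, with 2799 and 2792 genes at an unadjusted p under 0.05. Leaving out 1 library or 1 replicate number gave between 0 and 2240 calls (higher 0 to 743, lower 0 to 1497). There were 0 calls without replicate 1 or 2, with 2461 and 1268 genes at an unadjusted p under 0.05 in edgeR, and 673 without replicate 3. The causes were not tested. RLE, upper-quartile and library-total scaling and a minimum of 1 CPM gave between 142 and 221 calls.

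The replicate block was paired by number, and same-numbered libraries did not always correlate best, since replicate 3 of 5.5DDC correlated at 0.405 with replicate 2 of 6.5DDC. The median of 28 of 44 lists kept its sign in all 21 alternatives, and that of the neural progenitors changed sign in 7. Genes with small log2 changes changed sign when single libraries or replicate numbers were left out, with ranges of -0.0343 to 0.151 for Sox2, -0.121 to 0.140 for Nes, -0.0651 to 0.233 for Foxa1, -0.252 to 0.191 for Foxa2 and -0.143 to 0.337 for Shh. Rps3a1 was 0.17 on log2(FPKM + 1) and 0.18 on log2(FPKM + 0.1). Of the difference between the 2 intervals, 0 genes were called with edgeR with or without the block (828 and 701 at an unadjusted p under 0.05), the fit without it being added after the data were seen.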
